A study of Mus musculus with 4 samples.

Results

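The 34 genes described here are interferon-induced genes and genes of class I antigen presentation, read on microarrays of mouse cardiomyocytes that had received a small interfering RNA. They form a list of named genes of this response. Of the 34, 32 were read by at least 1 probe named through a RefSeq accession and 30 were bright enough to test, among 20881 genes with a symbol and 15382 such genes tested. For a gene with several probes the brightest was used. The cells were cardiomyocytes derived from CGR8, a mouse embryonic stem cell line, kept in medium with 2% serum. Of the 4 samples, 2 received a scrambled RNA (siScr) and 2 an RNA against Erbb4 (siErbB4), a neuregulin receptor, each with the Pepmute transfection agent and for 48 hours. Both groups thus carried a small RNA and the agent, and no untransfected array is used here. All cells come from 1 line. No source used here states that the replicates were separate cultures, so the tests reflect just the spread among these 4 samples, which may be technical.

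Interferons are secreted when receptors inside the cell meet foreign RNA or DNA. They act through JAK kinases and STAT factors, which switch on a shared set of genes whose proteins sense RNA, block viral translation, degrade RNA or tag proteins, and which also raise peptide display on class I molecules. Small RNAs delivered into cells can be read by the same sensors, which is why this gene set is often examined after transfection.

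Each sample had an array of its own on a single slide. The array scaling value, the upper quartile of processed signals, was 878 to 989, and the scanner software called 64.8% to 68.5% of probes well above background. The arrays numbered replicate 1 lay at positions 3 and 4 of the slide and those numbered 2 at positions 1 and 2. The 6 spike-in control probes differed between the numbers by -0.06 to 0.10 on the log2 scale (replicate 2 minus replicate 1). The probe for Erbb4 had signals of 9.02 and 11.9 in siScr replicates 1 and 2 and of 2.83 and 15.0 in siErbB4 replicates 1 and 2. It was well above background on the last of these alone, so it does not check the labels. Sample titles set the groups here, since the description field gives the scrambled RNA for all 4 samples and 1 source name gives another ERBB number. All 11 cardiomyocyte markers examined were well above background on all 4 arrays.

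Most of the interferon-induced genes were measurable in both transfected groups, while several interferon genes were not. Of the 32 genes with a probe, 25 were well above background on all 4 arrays. Irf7, the factor that amplifies type I interferon production, was so on none, with signals of 6.50, 7.98, 6.81 and 4.29 in siScr 1, siScr 2, siErbB4 1 and siErbB4 2. Oas2, at 7.87, 7.88, 15.9 and 8.11 in the same order, was so on siErbB4 replicate 1 alone, and neither it nor Irf7 was tested. Mx1 and Mx2, antiviral GTPases that the reference lists as transcribed pseudogenes, had no matching probe. Of 17 listed interferon and interferon receptor genes, 16 had a probe and 6 were well above background on no array, among them Ifnb1 (1.94 to 2.42) and Ifng (3.38 to 10.9). The interferon genes Ifna1 (25.5 to 32.5), Ifna5 (18.3 to 22.9) and Ifnl3 (68.1 to 85.5) were well above background on all 4, and Ifna2 on 3. Ifna1 and Ifnl3 were chosen after their values were seen. The type I receptor genes Ifnar1 and Ifnar2 were well above background on all 4. Without untransfected cells, these levels cannot be set against cells that received no small RNA.

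**Figure D1:**
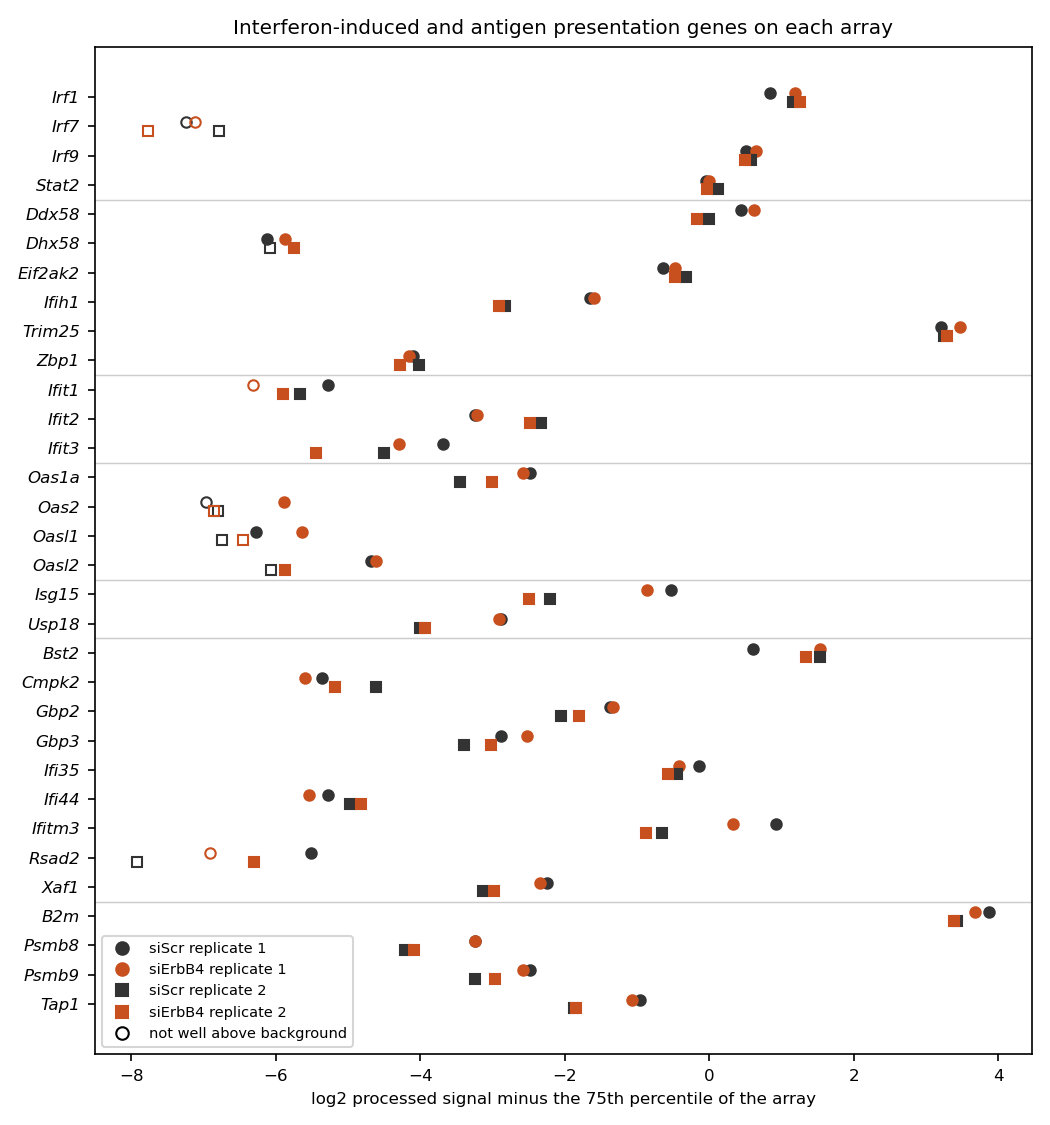
Level of each of the 32 genes with a probe on each array, as log2 processed signal relative to the array's upper quartile; circles are replicate 1 arrays, squares replicate 2, black siScr, orange siErbB4, and open symbols are signals not well above background. For genes such as Isg15, Ifih1, Usp18 and Tap1 both circles lie to the right of both squares; levels of different genes come from different probes and are not compared.

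Between the siErbB4 and siScr arrays, none of the interferon-induced or antigen presentation genes passed the test. With limma, 0 of 30 had a Benjamini-Hochberg adjusted p under 0.05 (background 0% of 21580 features) and 0 had an unadjusted p under 0.05 (background 1.61%, 0.806% in the lower direction). Their median log2 difference, siErbB4 minus siScr, was 0.015, beside -0.01 over all features, and 13 of 30 lay below 0 (background 53%). All 30 of the 95% intervals included 0, and 20 differences were under 0.2 in size. The fit held the group alone, so these intervals also carry the difference between the replicate numbers. Gbp3, for example, differed by 0.36 within replicate 1 and 0.37 within replicate 2, with an interval of -0.43 to 1.16. For Bst2 the differences within the numbers were 0.92 and -0.20. The groups did not overlap at 5 genes (background 28.2%). These were Irf1, Dhx58 and Trim25, with higher values in siErbB4 (background 12.7%), and Ifit1 and Zbp1, with lower ones (background 15.6%).

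The differences of largest size belonged to Ifit3 and Ifit1, of a family whose proteins bind foreign RNA and hold back its translation, and they were the 2 genes at 0.58 or more in size (background 3.8%) and at -0.58 or lower (background 1.76%). Ifit3 had processed signals of 76.6 and 38.6 in siScr replicates 1 and 2 and of 48.0 and 21.5 in siErbB4 replicates 1 and 2, with a difference of -0.77 (SE 0.52, interval -2.23 to 0.68). The groups overlapped, since siErbB4 replicate 1 lay above siScr replicate 2. Ifit1 had 25.5 and 17.3 in siScr and 11.9 and 15.7 in siErbB4, with a difference of -0.64 (SE 0.24). The lowest of these was not well above background, and with normexp background correction the Ifit1 difference was -0.15. For Isg15, the ubiquitin-like modifier, the difference was -0.32 with an interval of -2.70 to 2.06 from a fit without the replicate number. Within replicate 1 it was -0.34 and within replicate 2 -0.29. Intervals from the same fit were narrower for Stat2 (-0.065, -0.45 to 0.32), Irf9 (0.026, -0.36 to 0.42) and Trim25 (0.15, -0.25 to 0.55).

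Between the replicate numbers, 8 genes of the list passed the test, 7 of them in the same direction. Isg15, Usp18, Oasl2, Ifih1, Xaf1, Psmb8 and Tap1 were lower in the replicate 2 arrays of both groups, by 1.69- to 3.15-fold, and Ifit2 was higher by 1.77-fold. With limma and Benjamini-Hochberg adjustment over 21580 features, these were 8 of 30 called (background 5.02%), 7 lower (background 2.37%) and 1 higher (background 2.65%). An unadjusted p under 0.05 was reached by 15 (background 23%). The median log2 difference of the list, replicate 2 minus replicate 1, was -0.54, beside 0.02 over all features, and 21 of 30 lay below 0 (background 47.3%).

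The arrays of the numbers did not overlap at 20 of the 30 (background 55.6%), with replicate 2 below at 17 (background 26.4%) and above at 3 (background 29.2%). At 13 the difference was -0.58 or lower (background 7.86%). Within the siScr arrays the median was -0.46, and within the siErbB4 arrays, which share no sample with them, it was -0.34. Replicate 2 lay lower in both groups at 17 genes (background 33.3%), by at least 0.58 in both at 9 (background 5.16%), and higher by that much in both at 1, Ifit2 (background 4.82%). Oasl1 passed the filter on dim signals through its replicate 1 arrays alone, so it had to be higher there. All 8 calls ended when siScr replicate 1, siScr replicate 2 or siErbB4 replicate 2 was left out or when dim probes were kept in the test, 6 genes were called without siErbB4 replicate 1, and the median was -0.25 with normexp. Leaving out an array leaves 1 array on a side, and the differences themselves kept their sign, with ranges such as -1.83 to -1.49 for Isg15, -1.29 to -1.21 for Ifih1, -0.90 to -0.79 for Tap1 and 0.74 to 0.90 for Ifit2.

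**Figure D2:**
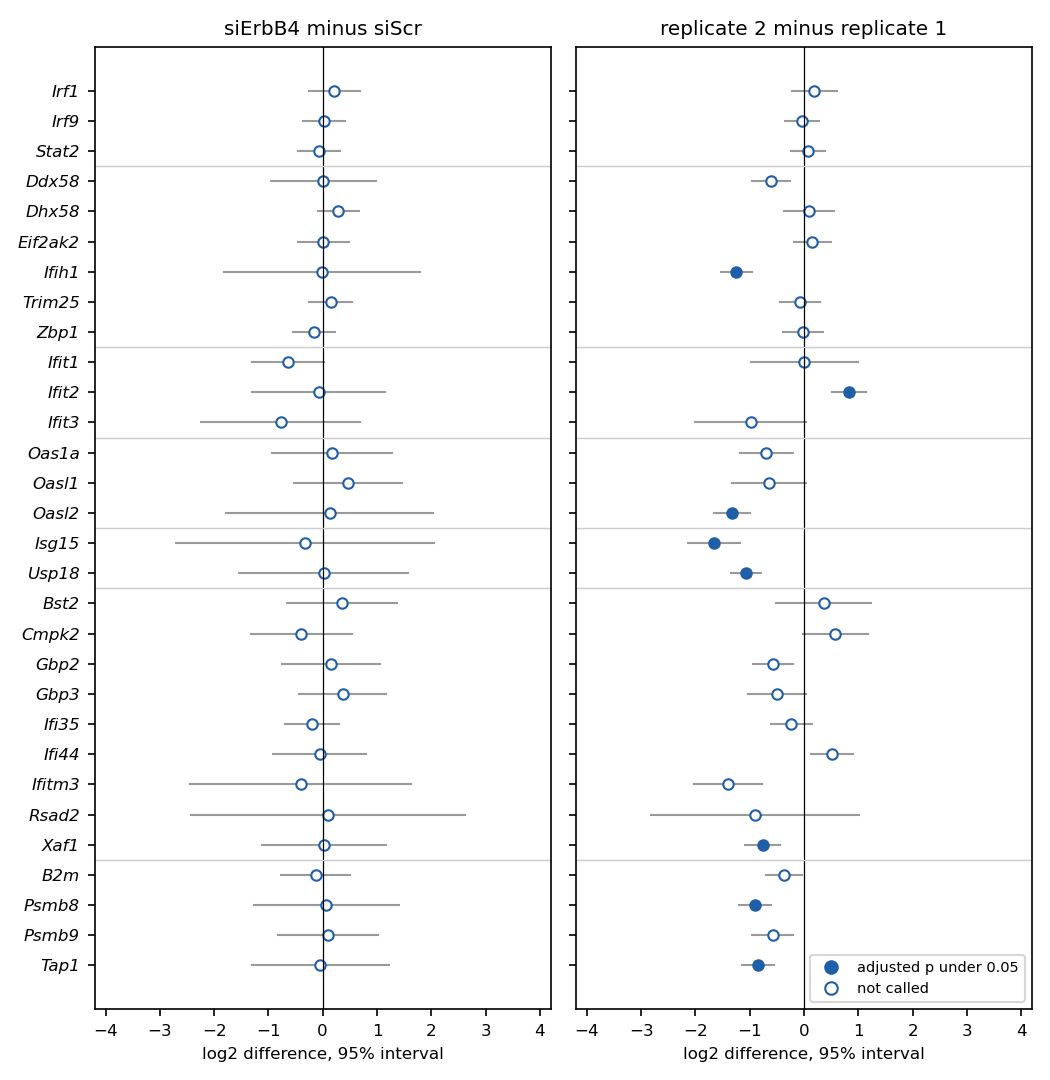
Log2 differences with 95% intervals from limma for the 30 genes tested, between the groups (left) and between the replicate numbers (right); filled points have an adjusted p under 0.05. No gene is filled on the left, and on the right 7 are filled below 0 and 1, Ifit2, above.

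**Figure D3:**
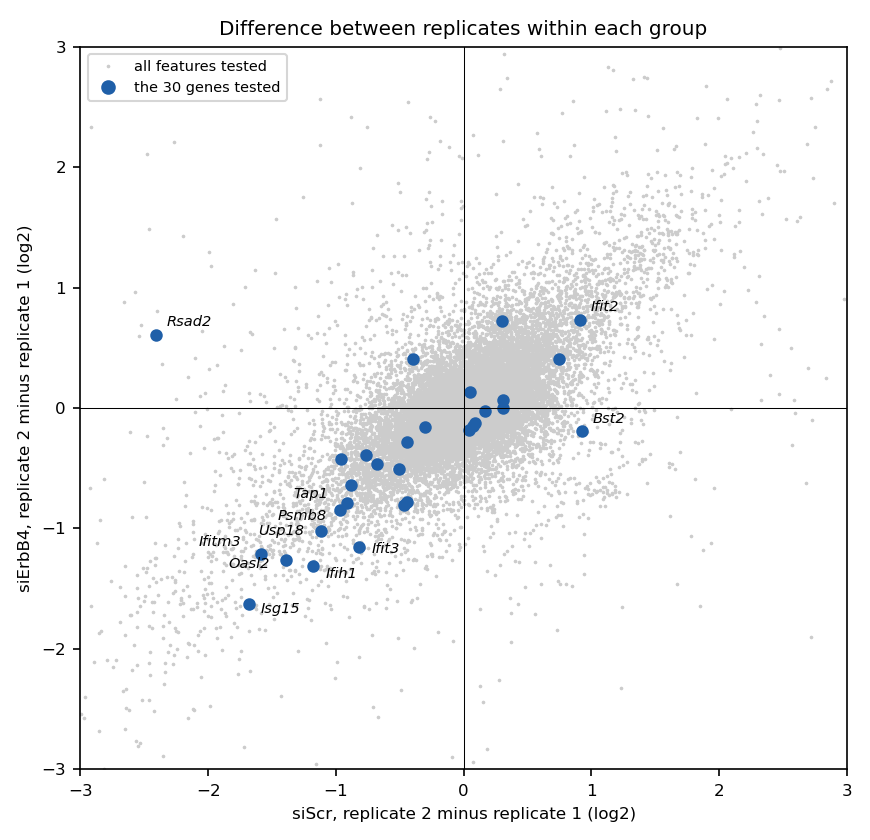
Replicate 2 minus replicate 1 on the log2 scale in the siScr arrays (horizontal) and the siErbB4 arrays (vertical) for the 30 genes (blue) and all 21580 features (grey, of which 87 lie outside the axes). Isg15 lies at -1.68 and -1.63, while Rsad2 lies at -2.41 and 0.61.

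The modifier Isg15, which is attached to proteins much as ubiquitin is, and Usp18, the protease that removes it and dampens receptor signalling, both fell in replicate 2. Isg15 had processed signals of 687 and 516 in replicate 1 of siScr and siErbB4 and of 190 and 166 in replicate 2. Both replicate 2 arrays lay below both replicate 1 arrays, and the log2 difference was -1.66 (SE 0.18, limma adjusted p 0.0275). A second, dimmer Isg15 probe gave -2.07. Usp18 had 134 and 125 in replicate 1 and 54.7 and 61.5 in replicate 2, without overlap, and a difference of -1.07 (SE 0.11, adjusted p 0.0237).

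The OAS genes encode synthases of short oligoadenylates, a signal made on meeting double-stranded RNA, and relatives of them. Oasl2 had 38.5 and 38.3 in replicate 1 of siScr and siErbB4 and 13.0 and 15.9 in replicate 2, a log2 difference of -1.32 (SE 0.12, limma adjusted p 0.0223). The 13.0 was not well above background, and with normexp the difference was -0.35 and was not called. Oas1a had 177 and 157 in replicate 1 and 80.6 and 117 in replicate 2 (-0.69, SE 0.18, adjusted p 0.116), and its second probe gave -0.96. Oasl1 was not well above background on either replicate 2 array and was at least 1.28-fold lower there (measured log2 difference -0.64), a direction that its filter fixed. Oasl2 and Oas1a, which did not pass the filter in that way, both had lower values in replicate 2 without overlap, and Oasl2 was called. Oas1a has close relatives in the mouse genome, and its probes may read them too.

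The IFIT genes differed from each other. Ifit2 had 105 and 101 in replicate 1 of siScr and siErbB4 and 175 and 167 in replicate 2, a log2 difference of 0.82 (SE 0.12, limma adjusted p 0.0377). Ifit3, whose signals are given above, had lower values in replicate 2 within each group, by -0.82 in siScr and -1.15 in siErbB4 (together -0.98, SE 0.39, adjusted p 0.232). Ifit1 gave 0.0082 (SE 0.37), with -0.39 in siScr and 0.41 in siErbB4, so its direction was opposite in the groups. Ifit3 has a near-identical copy, Ifit3b, and the probes may read both.

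Promoters of some of these genes, chosen after the values were seen, are shown as a description. Sequences are those of RefSeq (GRCm38.p6, the mouse reference, not the CGR8 genome), 250 bases before each annotated start, 5′ to 3′ on the gene's strand. Capitals mark matches on either strand to GAAA, any 2 bases, GAAA, the core letters of the interferon-stimulated response element to which STAT and IRF factors bind. Isg15 had the lowest difference of the list between the replicate numbers. Ifit3 and Ifit2 lie near each other on chromosome 19 with differences of opposite sign, that of Ifit3 not called. Tap1 stands for the antigen presentation genes.
Isg15 (chr4:156200819-156201068, minus strand): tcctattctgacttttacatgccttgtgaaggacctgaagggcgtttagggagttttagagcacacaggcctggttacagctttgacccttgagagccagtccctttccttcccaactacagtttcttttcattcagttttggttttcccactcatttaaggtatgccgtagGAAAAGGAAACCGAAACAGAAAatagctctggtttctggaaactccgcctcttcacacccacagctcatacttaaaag
Ifit3 (chr19:34583279-34583528, plus strand): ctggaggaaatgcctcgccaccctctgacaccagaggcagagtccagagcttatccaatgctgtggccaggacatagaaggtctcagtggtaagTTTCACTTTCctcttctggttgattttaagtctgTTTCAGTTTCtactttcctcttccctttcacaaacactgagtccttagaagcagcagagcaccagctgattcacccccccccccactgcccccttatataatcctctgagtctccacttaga
Ifit2, first start (chr19:34550444-34550693, plus strand): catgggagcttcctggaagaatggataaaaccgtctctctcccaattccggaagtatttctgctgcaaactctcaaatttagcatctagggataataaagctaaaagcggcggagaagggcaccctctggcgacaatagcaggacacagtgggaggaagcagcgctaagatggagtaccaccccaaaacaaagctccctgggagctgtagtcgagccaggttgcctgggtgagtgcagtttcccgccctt
Ifit2, other start (chr19:34550838-34551087, plus strand): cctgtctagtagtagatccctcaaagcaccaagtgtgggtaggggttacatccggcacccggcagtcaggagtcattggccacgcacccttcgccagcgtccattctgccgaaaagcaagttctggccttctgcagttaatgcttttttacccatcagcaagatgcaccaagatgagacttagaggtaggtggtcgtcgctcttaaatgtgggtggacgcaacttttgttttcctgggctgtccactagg
Tap1 (chr17:34187306-34187555, plus strand): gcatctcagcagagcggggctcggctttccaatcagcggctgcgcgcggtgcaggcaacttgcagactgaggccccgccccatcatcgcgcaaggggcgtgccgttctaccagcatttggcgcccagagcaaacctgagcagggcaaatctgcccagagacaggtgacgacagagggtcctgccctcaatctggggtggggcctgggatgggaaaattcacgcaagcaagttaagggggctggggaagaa
In Isg15 there were 3 matches, which overlap each other and begin 78, 72 and 66 bases before the start. Ifit3 had 2, beginning 156 and 122 bases before it. These letters were in neither Ifit2 window nor in that of Tap1, which says nothing about binding there. A link between the letters and the differences was not tested.

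Of the 28 genes of the list with a promoter window, 10 held these letters within the 250 bases (35.7%), against 3.46% of all 27025 genes with a window and 2.98% of all windows. They were Ifit1, Ifit3, Isg15, Oas1a, Stat2, Rsad2, Bst2, Gbp2, Gbp3 and B2m. The letters TTCNNNGAA, the core of the interferon-gamma activated site, which reads the same on both strands, were held by 6 of 28 (21.4%), against 8.13% of all genes and 7.02% of windows. These were Ifit2, Oas1a, Irf1, Bst2, Eif2ak2 and Psmb8. Of the genes called lower in replicate 2 that have a window, Isg15 held the first motif and Psmb8 the second, and Oasl2, Ifih1, Xaf1 and Tap1 held neither. A match is a description of the letters and not of a bound site.

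Among the RNA sensors, Ifih1, a receptor of long double-stranded RNA, was the 1 gene of 6 that passed between the replicate numbers (background 5.02%). Its signal was 316 and 312 in replicate 1 of siScr and siErbB4 and 124 and 125 in replicate 2, and the log2 difference was -1.25 (SE 0.11, limma adjusted p 0.021). The groups were nearly level at each number. Ddx58, which encodes the RIG-I receptor, had 1337 and 1442 in replicate 1 and 874 and 833 in replicate 2 (-0.61, SE 0.13, adjusted p 0.0785), and its second probe gave -0.88. Eif2ak2, the kinase that halts translation on binding double-stranded RNA, gave 0.15 (SE 0.13, interval -0.18 to 0.49). Trim25, a ubiquitin ligase that acts on RIG-I, gave -0.073 (SE 0.14), Zbp1, a sensor of Z-form nucleic acid, -0.019 (SE 0.14), and the RIG-I relative Dhx58 0.089 (SE 0.17). For these 4 the arrays of the numbers overlapped.

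The signalling genes that carry the response had small differences. Stat2 and Irf9 encode parts of the factor that binds the response element. Stat2 had processed signals of 961 and 936 in replicate 1 of siScr and siErbB4 and of 955 and 913 in replicate 2, a log2 difference of 0.069 (SE 0.12, interval -0.24 to 0.38). Irf9 had 1408 and 1478 in replicate 1 and 1313 and 1323 in replicate 2 (-0.040, SE 0.12, interval -0.35 to 0.27). Irf1, a factor induced by interferon gamma, gave 0.19 (SE 0.16, interval -0.22 to 0.60). None of the 3 was called by limma in either comparison.

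The remaining effector genes lay on both sides of 0. Ifitm3, a membrane protein that restricts entry of enveloped viruses, had 1875 and 1186 in replicate 1 of siScr and siErbB4 and 555 and 509 in replicate 2. The numbers did not overlap, and its log2 difference of -1.40 (SE 0.23) had a limma adjusted p of 0.0515, just short of the threshold; with the group as a term it was called (adjusted p 0.0353). Xaf1, which promotes cell death, had 209 and 186 in replicate 1 and 100 and 119 in replicate 2 (-0.76, SE 0.12, adjusted p 0.0459). Its second probe gave -0.32, and with the mean of both the difference was -0.54 and was not called. The guanylate-binding GTPase genes Gbp2 (-0.57, SE 0.14) and Gbp3 (-0.50, SE 0.20) had lower values in replicate 2 without overlap and were not called, and neither was Ifi35 (-0.23, SE 0.14).

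On the other side, Ifi44 gave 0.51 (SE 0.15, limma adjusted p 0.137) and Cmpk2, a mitochondrial nucleotide kinase, 0.58 (SE 0.23, adjusted p 0.23), both with higher values in replicate 2 and no overlap. Bst2, which tethers budding virions, had 1507 in siScr replicate 1 and 2542, 2717 and 2364 in siScr 2, siErbB4 1 and siErbB4 2. Its low value is therefore that of a single array. Rsad2, the antiviral enzyme viperin, had 21.7 and 3.62 in siScr replicates 1 and 2 and 7.80 and 11.8 in siErbB4 replicates 1 and 2, with 2 of the 4 well above background. The direction between the numbers was opposite in the groups, and its interval of -2.82 to 1.02 was the widest among the 30 genes.

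All 4 antigen presentation genes had lower values in the replicate 2 arrays without overlap (background 26.4%). Of these, 2 passed the test (background 2.37% in this direction). Tap1, a subunit of the transporter that carries peptides to class I molecules, had 510 and 451 in replicate 1 of siScr and siErbB4 and 240 and 260 in replicate 2, a log2 difference of -0.85 (SE 0.11, limma adjusted p 0.0337). Psmb8, a catalytic subunit of the immunoproteasome, had 104 and 99.8 in replicate 1 and 47.5 and 55.2 in replicate 2 (-0.91, SE 0.11, adjusted p 0.0308), and with normexp it gave -0.36 and was not called. Psmb9, another such subunit, had 176 and 158 in replicate 1 and 92.2 and 120 in replicate 2 (-0.57, SE 0.14, adjusted p 0.106). Its promoter window and that of Tap1, each taken with the first bases of the gene, lie on opposite strands of chromosome 17 and share 275 bases. B2m, the light chain of class I molecules, had 14516 and 12027 in replicate 1 and 9486 and 9809 in replicate 2 (-0.36, SE 0.12, adjusted p 0.187). Between the groups the differences of these 4 ran from -0.13 to 0.097.

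Genes of the standard proteasome and other presentation genes were also compared. Of 15 constitutive proteasome genes, 0 were called between the replicate numbers by limma (background 5.02%) and 0 had an unadjusted p under 0.05 (background 23%). Their differences ran from -0.11 to 0.29 (median -0.026). The lowest p belonged to Psme3 (0.29, SE 0.11), which encodes a proteasome activator and not a standard subunit, and to Psma7 (0.20, SE 0.11). Of 27 other presentation genes tested, 1 was called lower (background 2.37%) and 1 higher (background 2.65%), with a median of -0.055. H2-DMb1, a chain of the chaperone that loads class II molecules, gave -0.82 (SE 0.12, adjusted p 0.0404). H2-Q1, of a class I-like family of near-identical members, gave 1.61 (SE 0.25, adjusted p 0.0461). Between the groups 0 genes of either list were called by limma (background 0%) and 0 had an unadjusted p under 0.05 (background 1.61%). The lowest p there belonged to Psmb7 (-0.17, SE 0.13), Psma5 (0.11, SE 0.13), Calr (-0.34, SE 0.27) and H2-DMa (-0.26, SE 0.22).

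Genes upstream of these were compared between the replicate numbers in the same way. Of 10 tested interferon and receptor genes 0 were called by limma (background 5.02%) and 2 had an unadjusted p under 0.05 (background 23%), with a median of 0.023. Ifnar1 gave -0.22 (SE 0.11), Ifnar2 -0.35 (SE 0.12) and Ifna2, well above background on 3 arrays, 0.89 (SE 0.27, adjusted p 0.151). Among the nucleic acid sensing genes, Mavs, the adaptor of the RNA helicase receptors, gave -0.095 (SE 0.11), the factor gene Irf3 0.0066 (SE 0.13), and the endosomal RNA receptor genes Tlr7 0.59 (SE 0.14) and Tlr3 -0.32 (SE 0.19). Of 12 JAK-STAT genes 1 was called by limma (background 5.02%), the feedback inhibitor Socs3, with lower values in replicate 2 (-1.03, SE 0.12, adjusted p 0.0303). Irf8, a factor of myeloid cells, gave -0.59 (SE 0.16).

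Between the groups, 0 genes of these 3 lists were called by limma (background 0%) and 0 had an unadjusted p under 0.05 (background 1.61%). The lowest p belonged to the interferon gamma receptor gene Ifngr1 (0.24, SE 0.13) and Ifna5 (-0.20, SE 0.17), to Dhx9 (0.29, SE 0.14) and Ikbke (-0.28, SE 0.18), and to Ptpn2 (0.33, SE 0.16) and the kinase gene Tyk2 (-0.22, SE 0.14).

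A wider list of interferon-induced genes held 59 genes, of which 47 were tested, with a median of -0.13 between the replicate numbers. By limma 4 were called lower in replicate 2 and 1 higher, but all of them except Slfn2 passed the filter on dim signals only through the arrays where they are high, so their direction was fixed and the counts and median support nothing. Slfn2, a schlafen gene with a role in immune cell quiescence, had 254 and 118 in replicate 1 of siScr and siErbB4 and 19.1 and 15.6 in replicate 2 (-3.23, SE 0.38, limma adjusted p 0.03). It was well above background on all 4 arrays, and the numbers did not overlap. As descriptions, Ifi204, a nucleic acid binding protein gene, was at least 3.54-fold, Slfn8 at least 1.66-fold and Ifit3b at least 1.93-fold lower in replicate 2, and Ifit1bl1 was at least 2.40-fold higher. Slfn8, Ifit3b and Ifit1bl1 were chosen after their values were seen.

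In the group comparison the chemokine gene Cxcl10 had the lowest p of this wider list. It had processed signals of 581 and 711 in siScr replicates 1 and 2 and of 3124 and 1876 in siErbB4 replicates 1 and 2. The groups did not overlap, and the log2 difference of 1.90 (SE 0.33) did not pass the adjustment (limma p 0.00501, adjusted p 1.00). Samd9l gave -0.46 (SE 0.15), and 0 of the 47 genes were called there (background 0%), with 2 at an unadjusted p under 0.05 (background 1.61%).

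**Figure D4:**
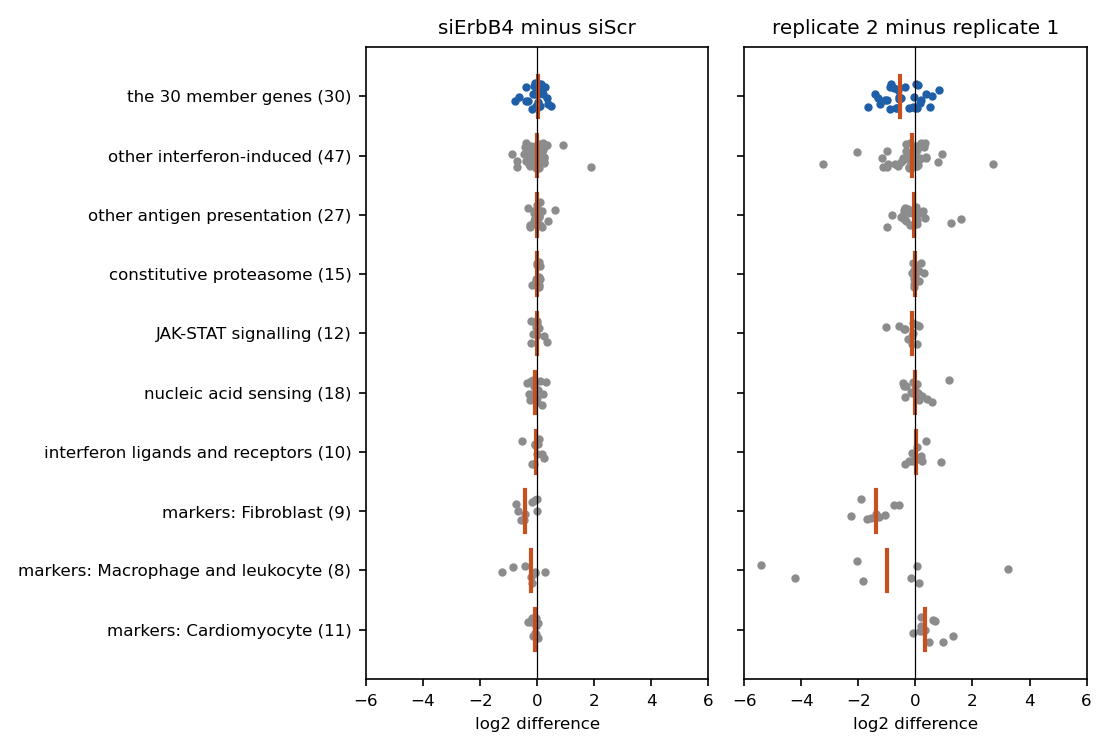
Log2 differences of single genes (points) and their median (orange bar) for the 30 genes and for other lists, with the number of genes tested in brackets, between the groups (left) and between the replicate numbers (right). On the right the medians are -0.54 for the 30 genes, -1.37 for fibroblast markers and 0.35 for cardiomyocyte markers.

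Markers of cell types moved with the replicate number too, and their part in the values above was not tested. All 9 fibroblast markers had lower values in replicate 2 without overlap (background 26.4%). Of these, 4 were called lower by limma (background 2.37%), and the median log2 difference of the 9 was -1.37. Col1a1, a main collagen gene, gave -2.27 (SE 0.29, adjusted p 0.0337) and the fibronectin gene Fn1 -1.05 (SE 0.10, adjusted p 0.0237). Their summed signal, in multiples of the array's scaling value, was 87.9 and 32.3 in siScr replicates 1 and 2 and 70.2 and 30.3 in siErbB4 replicates 1 and 2. All 9 were well above background on every array. In bulk RNA, fewer cells of a type and less RNA per cell cannot be told apart.

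Of 10 macrophage and leukocyte markers, 8 were tested, 2 were called lower in replicate 2 and 1 higher, with a median of -0.99. The adaptor gene Tyrobp and the macrophage receptor gene Adgre1 were not well above background on either replicate 2 array and were at least 9.94- and 10.1-fold lower there. These are the 2 called lower, and both passed the filter only through the replicate 1 arrays, so their direction was fixed and the count and median support nothing. Lyz2, a lysozyme gene, was well above background on all 4 arrays and had higher values in replicate 2 (3.24, SE 0.25, limma adjusted p 0.02). Cd14, also well above background on all 4, had lower values there without overlap (-1.82, SE 0.31, limma adjusted p 0.0527) and was not called. Aif1, well above background on 3 arrays, also had lower values there without overlap (-2.04, SE 0.58, limma adjusted p 0.137). Of the 8 tested, 5 differences lay below 0 and 3 above. Ptprc, the pan-leukocyte marker, was well above background on siErbB4 replicate 1 alone. The list's summed signal was 8.06 to 8.08 in siScr and 6.91 to 7.16 in siErbB4. Most of this sum came from Itgam, with processed signals of 4697 to 6256 over the arrays, so it does not show the dimmer markers. Cd14, Aif1, Adgre1 and Ptprc were chosen after their values were seen. Cardiomyocyte markers had higher values in replicate 2 without overlap at 10 of 11 genes (background 29.2%). By limma 3 were called higher (background 2.65%), among them the troponin gene Tnni3 (0.97, SE 0.11, adjusted p 0.0275) and the natriuretic peptide gene Nppa (1.31, SE 0.19, adjusted p 0.0408). The sum of the 11 cardiomyocyte markers was 1656 to 2133 in siScr and 1612 to 1927 in siErbB4.

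Of the other marker lists, 0 genes were called by limma between the replicate numbers (background 5.02%). An unadjusted p under 0.05 was reached by 1 of them (background 23%), the endothelial cadherin gene Cdh5 (-1.51, SE 0.31, limma adjusted p 0.0734). The medians were -0.48 for 4 endothelial genes (sum 3.37 to 4.50 in siScr and 3.29 to 3.47 in siErbB4), -0.046 for 2 T and NK cell genes (1.13 to 1.16 and 0.963 to 1.03), 0.011 for 2 dendritic cell genes (28.6 to 38.2 and 30.4 to 32.1) and -0.058 for 4 pluripotency genes (2.56 to 3.34 and 3.53 to 5.13). The endothelial genes did not share a direction. Kdr had higher values in replicate 2 without overlap (0.30, SE 0.16), and Pecam1 gave -0.062 (SE 0.14). Most of the endothelial sum came from Kdr, with processed signals of 2934 to 3814, so it does not show the dimmer genes. Kdr was chosen after its values were seen. Emcn, Cd3d, Gzmb, Klrb1c and Xcr1 were well above background on no array. Between the groups no marker was called by limma (background 0%) and 0 had an unadjusted p under 0.05 (background 1.61%). The medians there were -0.44 for fibroblast, -0.21 for macrophage and leukocyte, -0.065 for cardiomyocyte, -0.34 for endothelial, -0.21 for T and NK cell, 0.16 for dendritic and 0.59 for pluripotency markers. Within replicate 1 and replicate 2 they were -0.65 and -0.070 (fibroblast), -0.74 and -0.17 (macrophage and leukocyte) and -0.55 and -0.14 (endothelial). For pluripotency they were 1.06 and -0.022, with Pou5f1 at 953 in siErbB4 replicate 1 and 258 to 348 on the other arrays. The other lists gave -0.014 and -0.12 (cardiomyocyte), -0.15 and -0.27 (T and NK cell) and 0.18 and 0.14 (dendritic). The lowest p of each marker list belonged, between the groups, to Myl7 (-0.17), Actn2 (-0.21), Col1a2 (-0.76), Col3a1 (-0.68), Fcgr1 (0.27), Itgam (-0.19), Pecam1 (-0.18), Tek (-0.59), Cd3e (-0.23), Nkg7 (-0.19), Flt3 (0.40), Siglech (-0.080), Zfp42 (0.62) and Sox2 (0.56), and between the replicate numbers, beside those given, to Tek (-0.90), Cd3e (-0.13), Nkg7 (0.038), Siglech (0.25), Flt3 (-0.23), Nanog (0.23) and Pou5f1 (-0.43), each with its log2 difference.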

How the data were processed

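Labelled RNA of 4 samples was hybridised to Agilent 1-colour (Cy3) arrays, with 200 ng of input per the labels. Software was Agilent Feature Extraction 10.7.1.1 (file headers and submitters' processing notes). The deposited intensity values are background-subtracted and detrended within an array, unscaled between arrays, per the file headers; raw median intensity and flags stand beside them. On the log2 scale, the deposited value table of the authors matched the scaled signals used here within 0.00291 (medians -3.81 to -3.86 by array).

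Control spots (1377) and outlier-flagged spots (131 to 179 by array) were dropped, which cost 12 of 39429 probes; 0 spots were saturated. Spots were averaged per probe, log2 signals were scaled by the 75th percentile over probes, and 27508 probes got a symbol by unversioned RefSeq accession (GRCm38.p6). The array annotation names another build, so no probe positions are given. Features had to be well above background on at least 2 of 4 arrays of whatever group, which left 21580 with the brightest probe per gene. This differs from a filter on both arrays of a group, which is among the alternatives.

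The tests, for the groups and separately for the replicate numbers, used limma 3.58.1 under R 4.3.3 (two-sided, 2 residual degrees of freedom, Benjamini-Hochberg over all features, threshold 0.05), checked on simulated data. With 2 arrays a side, exact permutation reaches no p under 0.333. Genes below background on both arrays of a side are given as bounds: the brighter mean over a dim mean that takes, on each array, the larger of the gene's signal and the lowest signal well above background. Alternatives were normexp correction, quantile normalization, other filters, mean of probes, the value table, a replicate block or group term, and leaving out each array.

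All genes of the list are named; from other lists, the 2 lowest p in each comparison plus Ifnar1, Ifnar2, Ifnb1, Ifng, Irf3, Mavs, Tlr3 and Cxcl10. Some genes that this rule names are not reported here. Genes and lists were chosen with earlier results of these data known.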

Additional observations from a re-analysis of the deposited data

How the results depend on the processing

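The 4 arrays limit every value here, and dim genes are limited by their signal over background. Between the groups, 0 features and 0 genes of the list were called under every alternative run, and the list's median moved by less than the spread between replicates (SD 0.29). The replicate block gave 0 called features and the same median of 0.015. Same-numbered arrays deviated from their group means together (r = 0.66 across features, which are not independent replicates), with 2 pairs and no label that says what the number marks.

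Between the replicate numbers, normexp raised the called features from 1084 to 1921, and keeping dim probes gave 0. Leaving out 1 array gave 0 to 1197 features, 0 to 6 genes of the list and list medians of -0.52 to -0.35. With dim probes kept, 0 of the list were called and the median was -0.45; it was -0.25 with normexp and -0.43 with the filter on both arrays of a group. The causes were not tested.

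Uncalled values changed sign as follows. Group differences became, with normexp, Oasl2 -0.00037, Irf9 -0.0023, Rsad2 -0.055, Ddx58 -0.036, Eif2ak2 -0.020 and Psmb8 -0.017, and Ifih1 0.011 with quantile normalization and Ddx58 -0.020 with the mean of kept probes; with normexp the replicate difference of Ifit1 was -0.087. Leaving out arrays, group differences ran from -1.16 to 0.52 (Isg15), -0.049 to 0.10 (Irf9), -0.67 to 0.64 (Ifih1), -0.10 to 0.82 (Bst2), -0.15 to 0.16 (Eif2ak2), -1.20 to 0.38 (Ifitm3), -0.35 to 0.096 (B2m), -0.50 to 0.41 (Tap1), -0.53 to 0.38 (Ifit2), -0.31 to 0.65 (Oas1a), -0.57 to 0.82 (Oasl2), -0.15 to 0.017 (Stat2), -1.10 to 1.31 (Rsad2), -0.38 to 0.40 (Ddx58), -0.54 to 0.58 (Usp18), -0.41 to 0.31 (Ifi44), -0.19 to 0.49 (Gbp2), -0.42 to 0.47 (Xaf1), -0.42 to 0.55 (Psmb8) and -0.28 to 0.48 (Psmb9), and replicate differences from -0.076 to 0.25 (Dhx58), -0.092 to 0.83 (Bst2), -0.15 to 0.12 (Zbp1), -0.51 to 0.53 (Ifit1), -0.012 to 0.15 (Stat2), -0.11 to 0.029 (Irf9) and -0.20 to 0.058 (Trim25). Of 328 recomputed replicate values 40 lost and 8 gained a call, and no called gene changed sign.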
